A study of Mus musculus with 35 samples.

Results

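The posterior amygdala of enriched mice was compared between 2 strains, with 6 libraries of B6D2F1N and 4 of C57BL/6J mice, chosen by their labels of genotype, treatment and tissue from the 35 libraries analysed. All mice were female, bought from a breeder, kept on restricted feeding, trained at a touchscreen from postnatal day 70 and tested for cognitive judgment bias. Their age at the end varied with the length of training. Per the study, C57BL/6J mice learned more slowly and were older at the end than B6D2F1N mice, though not significantly so. No fit here used age, so effects of strain and age cannot be told apart. From postnatal day 77, enriched mice had access to a playground for 1 h per day, while standard mice got a mock treatment. Each library came from the cells of 1 mouse, collected from stained sections with a laser capture microscope, and no library was shared between mice. B6D2F1N mice are the first-generation offspring of a C57BL/6 and a DBA/2 parent, and both strains were aligned to the same C57BL/6J-based genome, GRCm38. The methods of the study place the posterior portion nearer to bregma than the anterior portion, the reverse of the usual order, so that the names of the portions follow the labels only.

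The basolateral amygdala weighs threatening and rewarding cues, and its projection neurons are held in check by GABA released from local interneurons. GABA-A receptors, chloride channels built from subunits of several families, carry most of this fast inhibition. Immediate early genes such as Egr1, Arc and Npas4 are transcribed within minutes of neuronal activity. Mice of an inbred strain carry the same allele on both chromosomes, whereas an F1 hybrid carries an allele of each parent strain at every autosomal site.

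Expression is given as CPM, the count of a gene relative to the total of its library, scaled to a common total with TMM factors, and positive log2 fold changes stand for higher levels in B6D2F1N. In the 10 libraries, 16938534 to 23769916 reads were counted on genes. The share of reads on no annotated gene averaged 17.5% in C57BL/6J and 22.6% in B6D2F1N (exact two-sided permutation test, p = 0.0714). Xist, the transcript of the silent X chromosome of females, was present in all 10 libraries. Rspo2, a listed marker of basolateral projection neurons, was found in all 10 libraries, at 11.8 to 32.6 CPM in C57BL/6J and 4.65 to 34.5 CPM in B6D2F1N. Its presence does not tell the posterior from the anterior portion, and the portion label was not tested. Since the tissue was sequenced in bulk, fewer cells of a type and less RNA per cell cannot be told apart.

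Tmem87a, Cap1, Cramp1l, Wdfy1 and Gabra2 had higher levels in B6D2F1N, and Nat8f4, Tmem267, Rapgef4, Gabrr2 and Egr1 had lower levels. Of 25640 genes tested with edgeR's quasi-likelihood test, 101 (0.394%) passed the threshold of an adjusted p of 0.05, and 2336 had an unadjusted p under 0.05. Of the 101 genes, 87 were higher in B6D2F1N (0.339% of the genes tested) and 14 were lower (0.0546%). Protein-coding genes made up 39 of the 101, which is 0.234% of the 16654 tested, with 27 higher (0.162%) and 12 lower (0.0721%). The absolute log2 fold changes of the 39 genes had a median of 1.73 and ranged from 0.86 to 9.24. The libraries of the strains did not overlap in CPM for any of the 39 genes, and they did not overlap for 563 (2.2%) of all genes tested. Pseudogenes were called more often, 53 of 2207 (2.4%), and all 53 were higher in B6D2F1N. The remaining 9 called genes were antisense, long non-coding or other transcripts, or had no entry in the annotation used here.

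**Figure D1:**
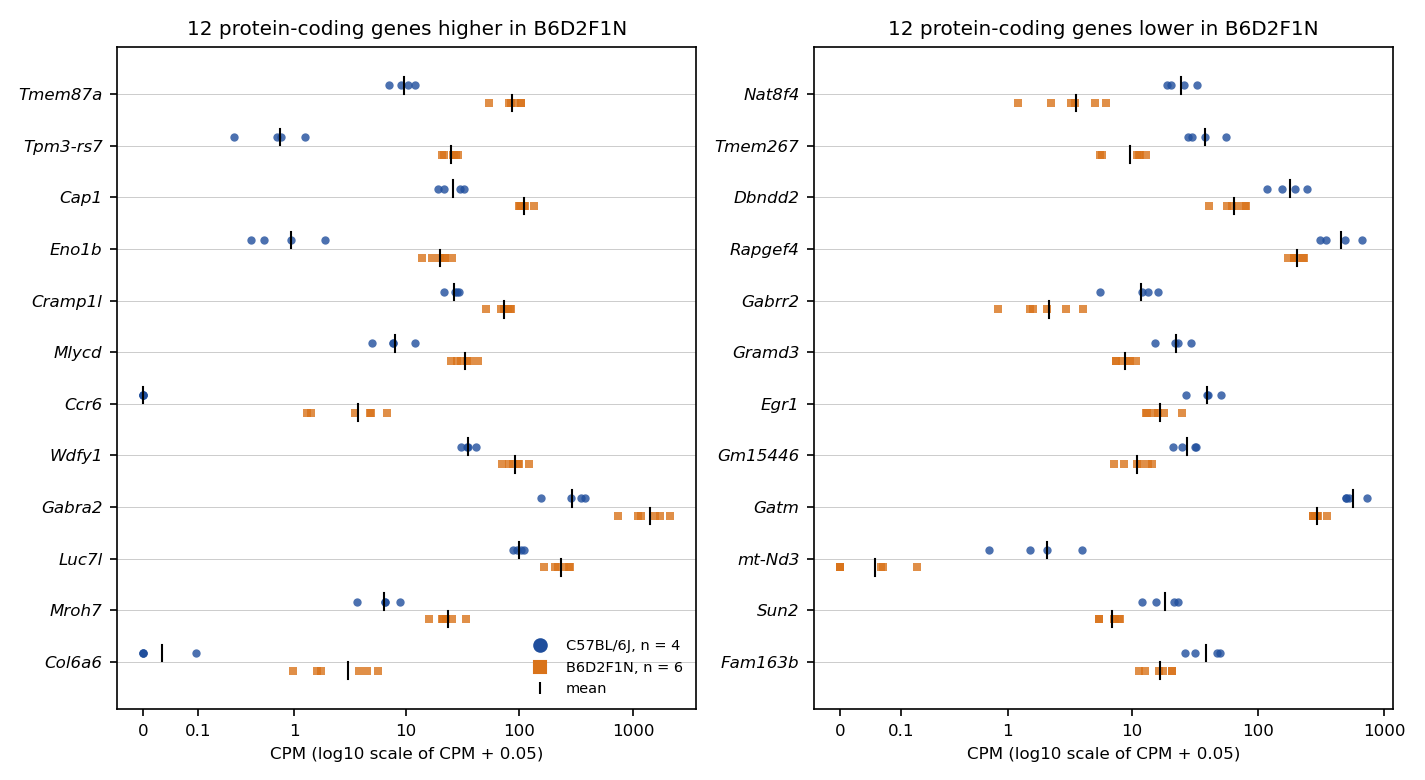
CPM of each library on a log10 scale (CPM + 0.05) for the 12 protein-coding genes with the smallest p-values in each direction. Circles are the 4 C57BL/6J libraries, squares the 6 B6D2F1N libraries and vertical bars the group means; the groups do not overlap for any of the 24 genes.

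Tmem87a, Cap1, Mark3 and Mal2 were higher in B6D2F1N. Tmem87a, a transmembrane protein of the Golgi (chr2:120355312-120404113, minus strand), had 12.2, 7.11, 10.5 and 9.02 CPM in C57BL/6J mice 1 to 4 and 53.7 to 104 CPM in B6D2F1N mice, with a median of 88.4. Its level was 8.92-fold higher in B6D2F1N (log2 fold change 3.16 ± 0.25 SE, adjusted p = 5.21e-06). Every B6D2F1N library was thus far above the highest C57BL/6J library. Cap1, a protein that recycles actin monomers (chr4:122859047-122886056, minus strand), had 32.7, 19.1, 30.1 and 21.6 CPM in C57BL/6J and 99.8 to 133 CPM in B6D2F1N (median 107). The difference was 4.25-fold (log2 2.09 ± 0.21 SE, adjusted p = 6.47e-05). Tmem87a overlaps Ganc and Cap1 overlaps Ppt1 on the opposite strand, as Wdfy1, Tmem267, Rapgef4, Col6a6, Gm15446, Myo19 and Sun2 overlap other genes. Without the strand setting of the counting, which is not given in the sources used here, reads of such overlapping genes cannot be told apart. Mark3, a kinase that regulates microtubules, was 2.25-fold higher (adjusted p = 0.0148), and Mal2, a protein of apical membrane transport, rose from 268 ± 98.5 to 892 ± 366 CPM (mean ± SD, n = 4 and 6, adjusted p = 0.0272).

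Mlycd, Wdfy1, Pikfyve, Alad, Myo19 and Traf3ip1 were also higher. Mlycd, the decarboxylase that removes malonyl-CoA, had 7.72, 12.0, 5.05 and 7.74 CPM in C57BL/6J and 25.2 to 43.3 CPM (median 32.7) in B6D2F1N, a 4.08-fold difference (adjusted p = 0.00147). Wdfy1, a protein that binds a phosphoinositide of endosomes, had 34.5, 30.6, 35.1 and 41.5 CPM in C57BL/6J and 69.8 to 121 CPM (median 92.0) in B6D2F1N, 2.61-fold higher (adjusted p = 0.00227). Neither gene overlapped between the strains. Pikfyve, a kinase of the same class of endosomal lipids, was 1.87-fold higher (adjusted p = 0.0374), and Alad, an enzyme of heme synthesis, was 1.81-fold higher (adjusted p = 0.0431). Myo19, a myosin that moves mitochondria, was 3.19-fold higher (adjusted p = 0.0366). Traf3ip1, a protein of the transport system of cilia, was 2.64-fold higher (adjusted p = 0.0245).

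Cramp1l, Luc7l, Zfp57, Ndn and Zfp949 were higher as well. Cramp1l, related to a chromatin protein of flies, had 29.3, 27.4, 21.8 and 28.0 CPM in C57BL/6J and 51.4 to 83.7 CPM (median 76.5) in B6D2F1N, 2.75-fold higher (adjusted p = 0.00137). Luc7l, a splicing factor of the U1 particle, had 110, 88.0, 96.0 and 103 CPM in C57BL/6J and 166 to 279 CPM (median 231) in B6D2F1N, 2.32-fold higher (adjusted p = 0.00639). Cramp1l and Luc7l lie 1291670 bases apart on chromosome 17 and were the only pair of called protein-coding genes within 2000000 bases. Zfp57, a zinc finger protein that maintains imprints, was 3.19-fold higher (adjusted p = 0.0316), and Ndn, an imprinted gene, was 2.04-fold higher (adjusted p = 0.0322). Zfp949, another zinc finger gene, was 2.06-fold higher (adjusted p = 0.0481).

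Several genes were at or near 0 in enriched C57BL/6J. Ccr6, the receptor of the chemokine CCL20, had 0 counts in all 4 C57BL/6J libraries and 1.33 to 6.83 CPM (median 4.17) in B6D2F1N, which is at least 25.4-fold higher when 3 counts are taken as the limit in each C57BL/6J library (adjusted p = 0.0021). Gpr157, a G protein-coupled receptor, was likewise at 0 in C57BL/6J and had 0.248 to 5.18 CPM in B6D2F1N, at least 14.1-fold higher (adjusted p = 0.0299). Both receptors were thus counted only in B6D2F1N among these 10 libraries. Col6a6, a chain of type VI collagen, had 2 counts in all in C57BL/6J, both in mouse 1, and 351 in B6D2F1N, where it ranged from 0.971 to 5.64 CPM (median 2.82). The ratio was 121 (95% counting interval 33.1 to 999, adjusted p = 0.00832). Marveld2, a protein of tight junctions, had 0.328, 1.10, 0.0435 and 0.116 CPM in C57BL/6J and 3.72 to 8.54 CPM (median 5.36) in B6D2F1N, and AI429214 had 0 to 0.349 and 1.74 to 10.4 CPM (adjusted p = 0.0325 and 0.0245). Mroh7 had 8.85, 3.71, 6.53 and 6.51 CPM in C57BL/6J and 16.1 to 34.0 CPM (median 22.0) in B6D2F1N, 3.66-fold higher (adjusted p = 0.00796). No molecular identifiers were used, so these bounds and intervals describe counting error and not other variation. In standard C57BL/6J mice, with values scaled over all posterior libraries, Ccr6 was at 0 and AI429214 reached 0.249 CPM. Gpr157, Col6a6 and Marveld2 reached 1.39, 1.11 and 2.09 CPM there. None of these last genes passed the threshold between the strains in standard mice.

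Lower levels in B6D2F1N were found for Rapgef4, Gatm, Tmem267, Gabrr2, Sun2, Gramd3, Dbndd2 and Fam163b. Rapgef4, an exchange factor activated by cyclic AMP, had 670, 483, 344 and 310 CPM in C57BL/6J and 172 to 230 CPM (median 196) in B6D2F1N, with a log2 fold change of -1.16 ± 0.22 SE (adjusted p = 0.0245). Gatm, the first enzyme of creatine synthesis, had 498, 727, 495 and 520 CPM in C57BL/6J and 272 to 354 CPM (median 287) in B6D2F1N (log2 fold change -0.93 ± 0.18 SE, adjusted p = 0.0334). Tmem267 had 55.9, 29.8, 27.7 and 38.0 CPM in C57BL/6J and 5.6 to 13.0 CPM (median 11.2) in B6D2F1N, 3.89-fold lower (adjusted p = 0.00417). All 4 C57BL/6J libraries were above the highest B6D2F1N library for each of these genes. Gabrr2, the rho2 subunit of GABA receptors, had 12.1, 16.1, 5.62 and 13.5 CPM in C57BL/6J and 0.824 to 4.08 CPM (median 1.86) in B6D2F1N, 5.37-fold lower (adjusted p = 0.0264). Sun2, a protein that links the nucleus to the cytoskeleton, had 15.7, 23.3, 21.8 and 12.1 CPM in C57BL/6J and 5.47 to 8.11 CPM (median 7.31) in B6D2F1N, 2.62-fold lower (adjusted p = 0.0423). Gramd3 had 23.1, 29.3, 22.2 and 15.4 CPM in C57BL/6J and 7.48 to 10.7 CPM (median 8.83) in B6D2F1N, 2.54-fold lower (adjusted p = 0.0272). The groups did not overlap for these genes either. Dbndd2 had 155, 246, 117 and 197 CPM in C57BL/6J and 40.9 to 80.1 CPM (median 65.6) in B6D2F1N, 2.77-fold lower (adjusted p = 0.00556). Fam163b had 47.6, 50.2, 26.6 and 31.6 CPM in C57BL/6J and 11.3 to 21.0 CPM (median 17.0) in B6D2F1N, 2.34-fold lower (adjusted p = 0.0481). The lowest C57BL/6J library thus lay nearer to the highest B6D2F1N library for Fam163b than for Dbndd2.

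When each mouse was left out in turn, 15 of the 39 protein-coding genes kept an adjusted p of at most 0.05 in all 10 fits, among them Tmem87a, Cap1, Mlycd, Gabra2, Nat8f4, Tmem267 and Dbndd2. The other 24 genes lost it in at least 1 fit and none changed sign. Rapgef4 lost it in 6 of the 10 fits (highest adjusted p 0.0960, without C57BL/6J mouse 1), Gabrr2 in 6 (0.134, without C57BL/6J mouse 2), Gramd3 in 7 (0.153, without C57BL/6J mouse 2) and Gatm in 8 (0.130, without C57BL/6J mouse 2). Sun2 and Fam163b lost it in 9 fits each (0.234 and 0.229, without C57BL/6J mouse 2), and Alad and Zfp949 in all 10 (0.140 without C57BL/6J mouse 4, and 0.156 without C57BL/6J mouse 1). Ndn and Pikfyve lost it in 9 fits each (0.105 without C57BL/6J mouse 1, and 0.142 without C57BL/6J mouse 4), and Marveld2, Myo19, Gpr157 and Hmga1b in 8 (0.133, 0.145, 0.092 and 0.0789, each without C57BL/6J mouse 1). Traf3ip1, Mal2 and Zfp57 lost it in 6 fits (0.104 and 0.147 without C57BL/6J mouse 2, and 0.111 without C57BL/6J mouse 3), AI429214 in 4 and Serpina3m in 2 (0.11 and 0.0561, without C57BL/6J mouse 2), Gm20075 in 2 (0.0684, without C57BL/6J mouse 1) and Mark3 in 1 (0.0523, without C57BL/6J mouse 3). Gm15446 lost it in 7 (0.154, without C57BL/6J mouse 2).

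Read-length windows of 9 of the 39 genes, 5 higher and 4 lower, matched another gene closely. A window of 72 bases was counted as matching when it aligned to a transcript of another gene with at most 2 mismatches, and a gene was said to have a close copy when at least 20% of its windows matched. The share was 86.2% for Tpm3-rs7 (copy Tpm3, a tropomyosin), 91.7% for Eno1b (Eno1, a glycolytic enolase), 93.2% for Gm20075 (Btf3l4) and 97.7% for Hmga1b (Hmga1, a chromatin protein). It was 74.2% for Gm15446 (Zfp932), 34.1% for Nat8f4 (Nat8f2), 28.9% for Serpina3m (Serpina3k, a protease inhibitor), 23.5% for Dbndd2 (Gm20458) and 100% for mt-Nd3 (Gm28438). Among the 53 called pseudogenes, 51 had such a copy. The following pairs of coding windows, taken from GENCODE M21 transcripts and written 5′ to 3′ in lower case with the differing base in capitals, show how little separates the reads of a called gene from those of its copy.
Tpm3-rs7: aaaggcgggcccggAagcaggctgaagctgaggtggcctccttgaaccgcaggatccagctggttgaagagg
Tpm3: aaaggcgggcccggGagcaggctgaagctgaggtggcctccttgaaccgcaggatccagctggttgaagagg
Nat8f4: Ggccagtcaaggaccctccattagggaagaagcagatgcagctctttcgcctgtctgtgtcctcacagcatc
Nat8f2: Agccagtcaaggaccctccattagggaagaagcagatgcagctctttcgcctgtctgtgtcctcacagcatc
Serpina3m: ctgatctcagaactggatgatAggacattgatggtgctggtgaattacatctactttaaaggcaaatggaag
Serpina3k: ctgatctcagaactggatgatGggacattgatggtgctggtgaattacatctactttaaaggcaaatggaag
Gm15446: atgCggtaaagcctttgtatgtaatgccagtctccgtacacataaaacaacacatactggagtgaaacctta
Zfp932: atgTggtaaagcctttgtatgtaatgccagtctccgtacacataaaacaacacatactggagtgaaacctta

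The levels of these genes were therefore set beside those of their copies. Tpm3-rs7 (chr14:113314608-113316754, plus strand) had 0.749, 0.261, 1.26 and 0.698 CPM in C57BL/6J and 20.7 to 28.9 CPM (median 26.3) in B6D2F1N (log2 fold change 5.06 ± 0.40 SE, adjusted p = 5.21e-06), while Tpm3 had medians of 163 and 131 CPM (log2 fold change -0.42, adjusted p = 0.521). The sum of Tpm3-rs7 and Tpm3 was 148 to 199 CPM in C57BL/6J and 111 to 173 CPM in B6D2F1N. The sum thus overlapped between the strains where Tpm3-rs7 did not. Eno1b had 1.92, 0.940, 0.392 and 0.523 CPM in C57BL/6J and 13.9 to 25.6 CPM (median 20.8) in B6D2F1N (log2 fold change 4.40 ± 0.46 SE, adjusted p = 0.000102), and its sum with Eno1 was 594 to 1049 and 492 to 706 CPM. Gm15446 had 21.1, 31.8, 25.2 and 32.4 CPM in C57BL/6J and 7.21 to 14.5 CPM (median 11.4) in B6D2F1N (log2 fold change -1.31, adjusted p = 0.0334), and Zfp932 had medians of 13.5 and 21.0 CPM (log2 fold change 0.61, adjusted p = 0.506). Their sum was 35.1 to 49.2 CPM in C57BL/6J and 21.0 to 38.8 CPM in B6D2F1N, which overlapped. Gm20075 (log2 fold change 3.6, adjusted p = 0.0138) and Hmga1b, which had 0 counts in C57BL/6J and was at least 10.3-fold higher (adjusted p = 0.0263), likewise gave sums with their copies that overlapped between the strains.

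For the remaining genes with copies, the sum did not overlap between the strains, in the direction of the gene itself except for mt-Nd3. Nat8f4, of a family of acetyltransferases, had 19.0, 20.6, 33.1 and 26.1 CPM in C57BL/6J and 1.21 to 6.25 CPM (median 3.41) in B6D2F1N (log2 fold change -2.78 ± 0.39 SE, adjusted p = 0.00192), and Nat8f2 added at most 3.27 CPM to any library. The sum was 19.2 to 36.4 CPM in C57BL/6J and 1.34 to 6.47 CPM in B6D2F1N. Serpina3m had 4 counts in C57BL/6J and 298 in B6D2F1N, a ratio of 51.2 (95% counting interval 19.8 to 189, adjusted p = 0.016). Serpina3k was at 0 in all 10 libraries, as was Gm20458 beside Dbndd2, so these sums equal the called gene alone. Serpina3k and Gm20458 share exon positions with Serpina3m and Dbndd2 on the same strand. Reads there may have been left uncounted, so a level of 0 does not show that the copy is silent. The mitochondrial gene mt-Nd3, a subunit of respiratory complex I, had 0.702, 4.02, 1.52 and 2.09 CPM in C57BL/6J and 0 to 0.153 CPM (median 0.0277) in B6D2F1N (log2 fold change -5.39 ± 1.08 SE, adjusted p = 0.0367). It lost the call in 9 of the 10 fits that left out a mouse (highest adjusted p 0.243, without C57BL/6J mouse 2). Its nuclear copy Gm28438 on chromosome 1, named here after its values were seen, went the other way, with 0 to 0.174 CPM in C57BL/6J and 4.85 to 10.9 CPM in B6D2F1N (log2 fold change 6.69 ± 0.69 SE, adjusted p = 8.82e-05). The gene and its copy thus differed in opposite directions, and their sum was 0.702 to 4.13 CPM in C57BL/6J and 5.01 to 10.9 CPM in B6D2F1N.

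Of the genes that do not code for proteins, those with the smallest p-values were the processed pseudogenes Gm5802, Atp6v0c-ps2 and Gm13394. Gm5802 had 0.0435 to 0.421 CPM in C57BL/6J and 38.7 to 56.0 CPM in B6D2F1N (log2 fold change 7.64 ± 0.41 SE, adjusted p = 9.97e-08). Atp6v0c-ps2, of which every window matched the proton pump subunit Atp6v0c, had 3.14 to 4.96 CPM in C57BL/6J and 84.6 to 238 CPM in B6D2F1N (log2 fold change 5.37 ± 0.32 SE, adjusted p = 2.36e-07). Gm13394, a copy of the glycolytic gene Gapdh, had 0 counts in C57BL/6J and 10.7 to 19.3 CPM in B6D2F1N, at least 98.8-fold higher (adjusted p = 5.21e-06). Whether a difference in level or in sequence moved reads between copies was not tested.

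Gabra2 was higher and Gabrr2, described above, was lower in B6D2F1N among the genes of GABA receptor subunits. In the list of 14 GABA-A subunits, which leaves out the rho subunits such as Gabrr2, Gabra2 was the 1 that passed the threshold, which 0.394% of all genes did. Gabra2, the alpha2 subunit (chr5:70957597-71095849, minus strand), had 286, 154, 375 and 346 CPM in C57BL/6J and 739 to 2106 CPM (median 1363) in B6D2F1N, 4.81-fold higher (log2 fold change 2.27 ± 0.33 SE, adjusted p = 0.00248). The alpha2 subunit is known for a lowered level in C57BL/6J mice, which carry an intronic deletion in the gene. Per kilobase of exon, Gabra2 was at 38.0 CPM in C57BL/6J, below Gabra3 (82.5), Gabra4 (72.6) and Gabra5 (55.3). In B6D2F1N it was at 183 CPM per kilobase, above Gabra3 (99.0), Gabra4 (69.7) and Gabra5 (27.9). Of these 4 alpha subunits, Gabra2 thus had the lowest mean in C57BL/6J and the highest in B6D2F1N. Gabra5, the alpha5 subunit, had a log2 fold change of -0.99 (adjusted p = 0.367). The list had a median log2 fold change of 0.22, with 8 members above and 6 below 0, beside a median of 0.03 over all genes tested. In standard mice, the median of the list was -0.12.

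**Figure D2:**
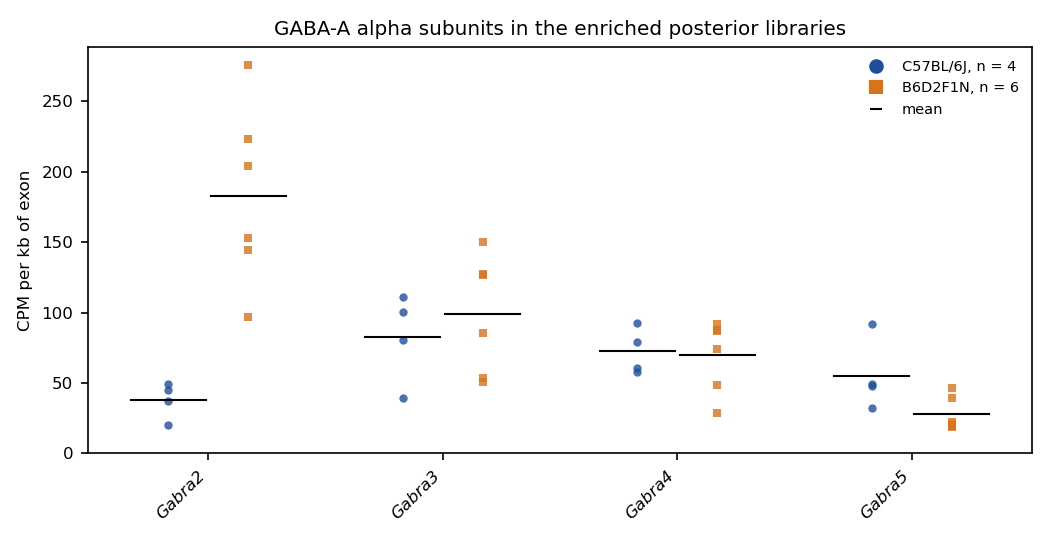
CPM per kilobase of exon of 4 alpha subunits of GABA-A receptors in each library, with circles for the 4 C57BL/6J, squares for the 6 B6D2F1N libraries and lines for the group means. Gabra2 averages 38.0 in C57BL/6J and 183 in B6D2F1N with no overlap, while Gabra3, Gabra4 and Gabra5 overlap between the strains.

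Of 18 immediate early genes, Egr1 was the 1 that passed the threshold, beside 0.394% of all genes, and it was lower in B6D2F1N. Egr1, a zinc finger transcription factor, had 51.5, 40.5, 39.6 and 27.0 CPM in C57BL/6J and 13.0 to 25.0 CPM (median 15.7) in B6D2F1N, a log2 fold change of -1.24 ± 0.24 SE (adjusted p = 0.0328). The groups did not overlap, but the call was lost in 8 of the 10 fits that left out a mouse (highest adjusted p 0.174, without C57BL/6J mouse 1). Nr4a2, a nuclear receptor, had 23.5, 40.8, 25.7 and 18.2 CPM in C57BL/6J and 3.08 to 15.8 CPM in B6D2F1N (adjusted p = 0.137). Npas4, a transcription factor induced by neuronal activity, had 4.63, 1.52, 7.92 and 1.40 CPM and 0.298 to 1.38 CPM (adjusted p = 0.267). Nr4a2 did not overlap between the strains. For Npas4, the highest B6D2F1N library (1.38 CPM) was barely below the lowest C57BL/6J library (1.40 CPM), and this gap depended on the scaling. With values scaled over all posterior libraries of both housings, Npas4 overlapped, at up to 1.36 CPM in enriched B6D2F1N and down to 1.35 CPM in enriched C57BL/6J. Arc, a protein of synaptic plasticity, had 204 CPM in C57BL/6J mouse 1, 19.9 to 33.1 CPM in mice 2 to 4 and 3.97 to 63.5 CPM in B6D2F1N (adjusted p = 0.506). Fos overlapped widely, with 4.40 to 18.1 and 1.84 to 22.4 CPM. Of the 18 genes, 15 had a log2 fold change below 0, and 6 of these had an unadjusted p under 0.05, with a median of -0.59 for the list. Of all genes tested, 47.7% were below 0, 1016 of 25640 were lower at an unadjusted p under 0.05, and the median was 0.03. In standard mice, the median of the same list was 0.30.

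The strain difference was then set beside that of the 9 posterior libraries of standard mice, which are other animals. There, 94 of 25171 genes (0.373%) passed the threshold, and these libraries include a B6D2F1N library with no counts of Xist, without which 166 genes passed. All 27 protein-coding genes with higher levels in enriched B6D2F1N had the same sign in standard mice, 13 of them past the threshold. Without the library that lacks Xist, however, Col6a6 changed from 1.88 to -0.32 and Zfp57 from 0.32 to -0.07 on the log2 scale, neither past the threshold in either fit. Of the 12 genes with lower levels, 7 had the same sign and 3, Nat8f4, Tmem267 and mt-Nd3, passed it. Tmem87a gave log2 fold changes of 3.16 and 3.04 in enriched and standard mice, Tpm3-rs7 of 5.06 and 5.10 and Luc7l of 1.22 and 1.31. Gabra2 gave 2.27 and 1.49, the latter with an adjusted p of 0.265. In the 7 anterior libraries of enriched mice, which come from the same animals, 15 of 23459 genes (0.0639%) passed, and 36 of the 39 genes had the same sign, with Tmem87a, Tpm3-rs7, Cap1 and Eno1b past the threshold.

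**Figure D3:**
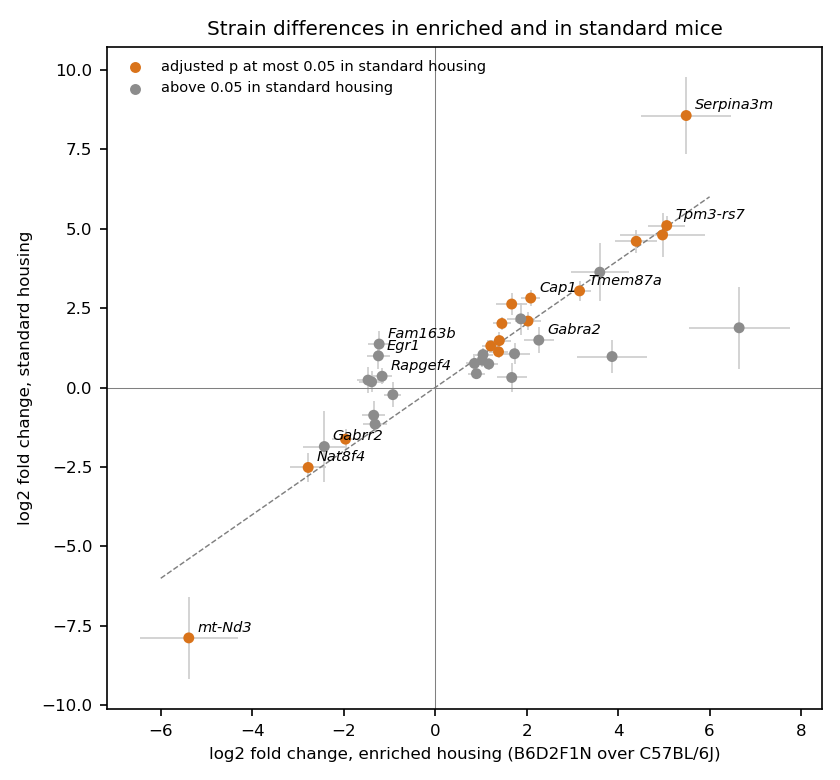
Log2 fold change (B6D2F1N over C57BL/6J) of 36 called protein-coding genes in enriched mice (x axis) and in standard mice (y axis), with standard errors as grey lines and the line of equal change dashed. The 3 genes with 0 counts in enriched C57BL/6J libraries are not drawn; most genes lie along the dashed line, while Egr1, Fam163b and Rapgef4 lie above 0 in standard mice.

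Egr1, Fam163b, Rapgef4, Dbndd2 and Sun2 were lower in enriched B6D2F1N and had log2 fold changes of 1.00, 1.37, 0.36, 0.23 and 0.18 in standard mice, none of which passed the threshold. The interaction of strain and housing over the 19 posterior libraries gave 0 of 27871 genes with edgeR (0%), 2335 genes with an unadjusted p under 0.05 and 37 genes with DESeq2. Fam163b had the smallest interaction p of the 39 genes (adjusted p = 0.327 with edgeR and 0.00188 with DESeq2). Egr1 and Rapgef4 had adjusted p-values of 0.491 with edgeR and 0.0178 with DESeq2, and Sun2 and Marveld2 passed with DESeq2 only (0.0432 and 0.0447). On simulated counts of the enriched strain comparison, a larger share of the calls of DESeq2 than of edgeR fell on unchanged genes. Those counts were drawn with dispersions that edgeR estimated. The interaction was not simulated, so they do not decide between the tools there. With values scaled over the 19 libraries, Egr1 ranged from 8.21 to 22.0 CPM in standard and 26.1 to 50.03 CPM in enriched C57BL/6J mice, and from 11.8 to 55.6 and 12.9 to 24.8 CPM in B6D2F1N mice. The enriched C57BL/6J libraries were thus above all standard ones of their strain, at an adjusted p of 0.172 for housing. Fam163b in enriched C57BL/6J was likewise above all standard libraries of that strain. Its standard and enriched levels were 4.21 to 20.1 and 26.9 to 48.8 CPM in C57BL/6J. In B6D2F1N, they were 21.0 to 56.1 and 11.0 to 20.5 CPM (adjusted p for housing with edgeR 0.186 in C57BL/6J and 0.752 in B6D2F1N).

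**Figure D4:**
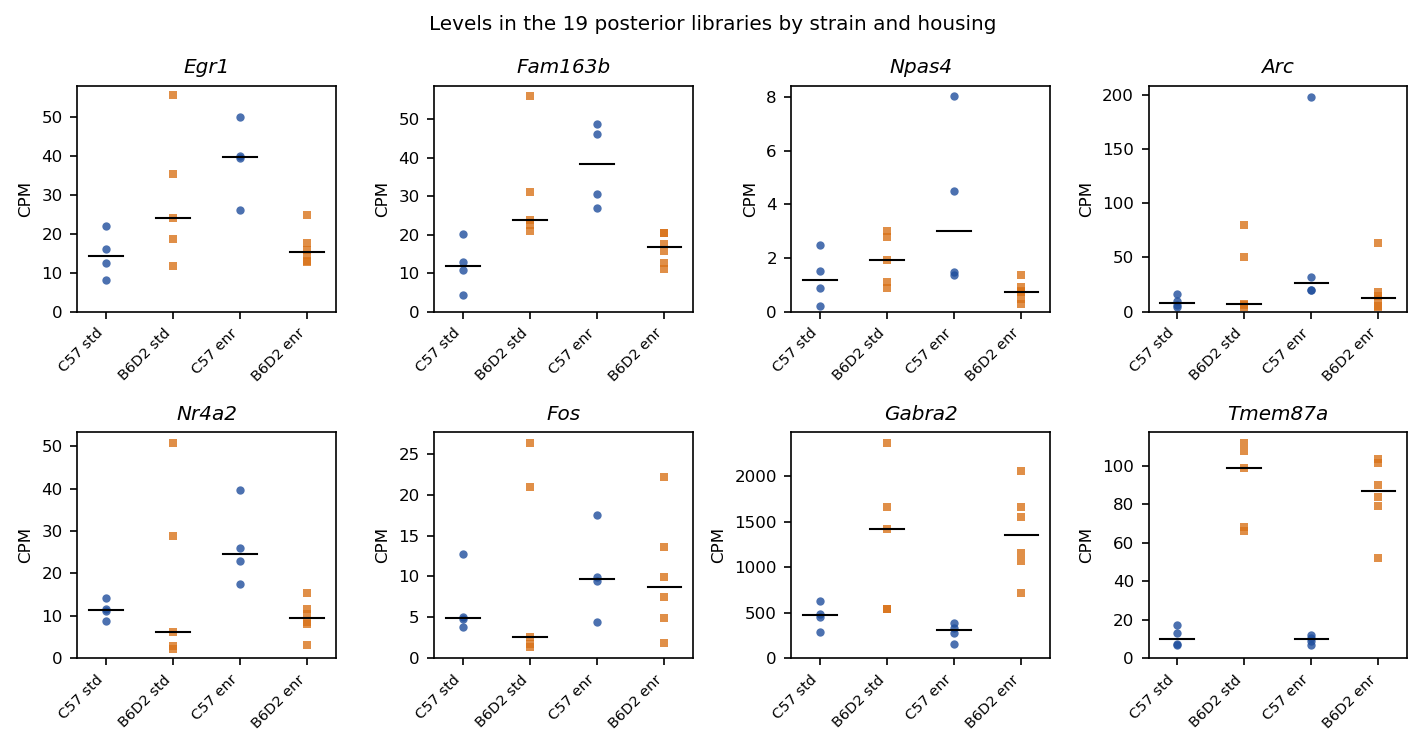
CPM of 8 genes in the 19 posterior libraries, with circles for C57BL/6J (C57), squares for B6D2F1N (B6D2), std for standard and enr for enriched housing, and lines for medians. Egr1 and Fam163b are highest in enriched C57BL/6J mice among the medians, whereas Tmem87a is higher in B6D2F1N in each housing.

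The summed level of 19 markers of oligodendrocytes, the cells that form myelin, was 25066, 32296, 20020.0 and 20580.4 CPM in C57BL/6J mice 1 to 4 and 7988 to 18577 CPM (median 13092) in B6D2F1N mice, which did not overlap. The difference of the mean log2 sums was -0.91 (exact two-sided permutation test, p = 0.00476, the smallest that 4 against 6 libraries allow, adjusted p = 0.0667 over 14 cell type lists). A list standing alone among 14 cannot reach a lower adjusted p with these libraries. The markers were chosen with earlier results of these data known. Mbp, Mobp, Mag and Padi2 are among the study's top genes with higher levels in enriched than in standard C57BL/6J posterior amygdala. That comparison shares the 4 C57BL/6J libraries used here. The p-value thus describes the gap and is not an independent test of it. All 19 markers had log2 fold changes below 0 and 15 an unadjusted p under 0.05, but none passed the threshold, which 0.394% of all genes did. The median was -0.87. Mag, an adhesion protein of myelin, had 395, 479, 327 and 278 CPM in C57BL/6J and 77.8 to 221 CPM (median 174) in B6D2F1N (adjusted p = 0.0911). Mbp, myelin basic protein, had 10356, 12229, 6040.2 and 6821 CPM in C57BL/6J and 1198 to 5417 CPM in B6D2F1N (adjusted p = 0.27). In standard mice, the summed level was 9171 to 14283 CPM in C57BL/6J and 2639 to 26347 CPM in B6D2F1N, with a median log2 fold change of the markers of 0.10. With the oligodendrocyte level as a term of the fit, 28 genes passed the threshold, 8 of them protein-coding and 5 of these among the 39. The part of the oligodendrocyte level in the other differences was not tested further.

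Gfap, an intermediate filament of astrocytes, had 851, 736, 507 and 501 CPM in C57BL/6J and 112 to 343 CPM (median 285) in B6D2F1N (adjusted p = 0.0633), whereas the summed level of 12 astrocyte markers overlapped (difference -0.27, adjusted p = 0.3). Choroid plexus markers were high in 2 B6D2F1N libraries. Their sum reached 15224 and 15814 CPM in B6D2F1N mice 1 and 3, against 1237 to 1976 CPM in the other 4 and 161 to 1443 CPM in C57BL/6J (difference 2.85, adjusted p = 0.111). Ttr, the transport protein of thyroid hormone that marks this tissue, had 14479 and 14696 CPM in those 2 libraries. Without them, 71 genes passed, 27 of them protein-coding, of which 21 were among the 39. Oligodendrocyte precursor markers had a difference of -0.57 (adjusted p = 0.111), with Bcas1 at the smallest p (log2 fold change -1.28, adjusted p = 0.365). The other 10 lists had adjusted p-values from 0.307 to 0.986.

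**Figure D5:**
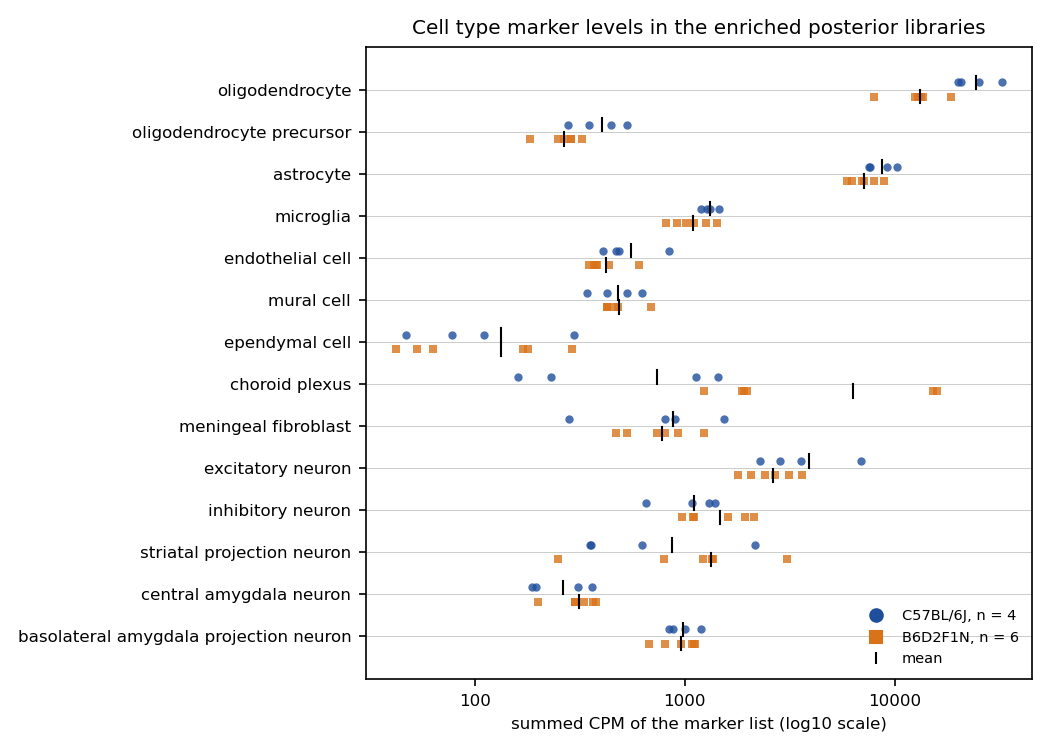
Summed CPM of the 14 cell type marker lists in each library on a log10 scale, with circles for the 4 C57BL/6J and squares for the 6 B6D2F1N libraries and bars for the group means. The oligodendrocyte sums do not overlap between the strains (C57BL/6J 20020.0 to 32296 CPM, B6D2F1N 7988 to 18577 CPM), and B6D2F1N mice 1 and 3 stand apart in choroid plexus markers.

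In the markers of other cells, the members with the smallest p-values had adjusted p-values above 0.05 throughout. They were Cx3cr1 in microglia (log2 fold change -0.74, adjusted p = 0.378), Slco1a4 in endothelial cells (-0.57, 0.506), Vtn in mural cells (-0.32, 0.732), Dynlrb2 in ependymal cells (1.10, 0.604) and Igf2 in meningeal fibroblasts (1.65, 0.551). Among neurons, they were Tbr1 of excitatory neurons (-1.40, 0.385), Sst of inhibitory neurons (0.89, 0.508), Drd1 of striatal projection neurons (1.41, 0.503), Dlk1 of central amygdala neurons (-1.02, 0.43) and Adamts2 of basolateral projection neurons (0.80, 0.506). The summed levels of all neuronal lists overlapped between the strains. Of the 10 excitatory markers, 9 had log2 fold changes below 0, with a median of -0.72, and of 0.23 in standard mice. At an unadjusted p under 0.05, 3 were lower and 1 was higher. Without C57BL/6J mouse 1, the median was -0.33.

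Of the 20 pathway lists, those with a called member were the immediate early genes, the GABA-A receptor subunits, the mitochondrial genes of the respiratory chain and the alleles known to differ between C57BL/6 and DBA/2. The allele list holds genes known from the literature, but it was chosen with earlier results of these data known. Of its 12 tested members, 3 passed the threshold, Wdfy1, Gabra2 and Alad, beside 0.394% of all genes and 0.234% of protein-coding genes tested. The list is thus described and not tested. Alad had 34.9, 38.2, 28.4 and 32.4 CPM in C57BL/6J and 53.4 to 67.0 CPM (median 60.6) in B6D2F1N. Glo1, the glyoxalase that detoxifies methylglyoxal, had 119 to 146 and 155 to 175 CPM without overlap, at an adjusted p of 0.524. Gpnmb, a membrane glycoprotein, had 8.67 to 27.6 and 3.59 to 10.4 CPM (log2 fold change -1.44, adjusted p = 0.137). Nnt, a mitochondrial proton pump that C57BL/6J mice lack in intact form, was low in both strains, with 0.731 to 5.09 and 2.01 to 7.92 CPM. Among the 13 mitochondrial genes, mt-Co1, a subunit of cytochrome oxidase, had a log2 fold change of -0.42 (adjusted p = 0.643).

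Genes of protein folding in the endoplasmic reticulum had a median log2 fold change of 0.26, with 18 of 23 above 0 and none past the threshold. Hyou1, a chaperone of that compartment, had 22.0, 11.0, 21.9 and 12.4 CPM in C57BL/6J and 27.1 to 43.9 CPM (median 36.8) in B6D2F1N (adjusted p = 0.0806). Edem1, which targets misfolded glycoproteins for degradation, had 17.6 to 36.2 and 38.7 to 98.3 CPM (adjusted p = 0.117). Neither gene overlapped between the strains, and in standard mice Hyou1 passed the threshold (log2 fold change 1.66, adjusted p = 0.0073). The median of the whole list was 0.007 in standard mice.

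No gene passed the threshold in the lists of vesicle release, potassium channels, glutamate receptors, neuropeptides, and monoamine and opioid receptors. Of 25 genes of vesicle release, 22 had a log2 fold change below 0 (median -0.42), with Stx1a at -1.08 (adjusted p = 0.431). In standard mice, the median of this list was 0.42. Potassium channel subunits had a median of -0.14, and of 0.28 in standard mice. Glutamate receptors had a median of 0.22, with Grm8 at 1.31 (adjusted p = 0.416), and neuropeptides had a median of 0.33, with Sst at 0.89 (adjusted p = 0.508). The medians in standard mice were 0.16 for glutamate receptors and -0.05 for neuropeptides. Oprk1, the kappa opioid receptor, led the monoamine and opioid receptors with a log2 fold change of 1.74 (adjusted p = 0.294).

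Immune and stress genes passed in none of their lists. The members with the smallest p-values were H2-Q4 for class I antigen presentation (log2 fold change 1.64, adjusted p = 0.534), H2-Ab1 for class II (1.24, 0.637), Gbp3 for the interferon response (-0.65, 0.637) and Cd59a for complement (0.76, 0.371). Among stress genes, they were Cryab for cytosolic heat shock proteins (-0.58, 0.552), Hsd11b1, which regenerates glucocorticoids, for glucocorticoid targets (-0.92, 0.283) and Gstt1 for glutathione (0.50, 0.514). For metabolism and translation, they were Hmgcs1 for cholesterol synthesis (-0.43, 0.503), Cox7a2l for the nuclear genes of the respiratory chain (-0.68, 0.471) and Rps2 for ribosomal proteins (-0.74, 0.565). In all, 30 of the 34 lists of cell type markers and pathways held no gene past the threshold with edgeR. On simulated counts of this comparison, edgeR recovered 42.5% of the genes changed by 2 on the log2 scale. The lists were not recounted with DESeq2, which called 190 protein-coding genes where edgeR called 39. A list without a called gene is thus not shown to be equal between the strains.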

How the data were processed

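RNA of laser-captured amygdala cells was sequenced as single reads of 72 bases. Per the labels and the submitters' processing notes, the authors used bcl2fastq, FastQC 0.11.7, Trimmomatic 0.38 for trimming, HISAT2 2.1.0 for alignment to GRCm38, SAMtools 1.8 and, for counting, HTSeq 0.11.2. The authors deposited raw counts per Ensembl gene and library. The annotation release and strand setting are not given in the sources used here. Reads on no gene stayed out of library totals. Alignment to a C57BL/6J-based genome can treat reads of the other parental strain differently.

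Genes with at least 10 counts over the 10 libraries were tested with edgeR 4.0.16 (R 4.3.3, TMM, quasi-likelihood F test, no covariates), with Benjamini-Hochberg adjustment over all genes tested and a threshold of 0.05. Symbols and positions came from GENCODE M21. Copies were searched with bwa 0.7.19. Summed CPM of marker lists was compared by exact two-sided permutation. Per-library values are given for the 12 protein-coding genes with the smallest p-values in each direction, other called protein-coding genes by fold change, the 3 other genes with the smallest p-values, and in each list the called members or else the member with the smallest p. Members and lists were chosen with earlier results of these data known. Both tools were tested on simulated counts of this comparison, drawn with dispersions that edgeR estimated. There, DESeq2 recovered more of the changed genes than edgeR and placed a larger share of its calls on unchanged genes. Each library is a separate mouse, but mice were housed in groups, and which of them shared a cage is not in the labels. Alternatives included DESeq2 1.42.0, other filters and scaling, other samples and added terms. Single members of some lists are not reported here.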

Additional observations from a re-analysis of the deposited data

Results flagged for a closer look

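Of 112 groups of values (42 named genes and 14 marker sums in each strain), 9 held a library that stood apart from the others of its strain by Dixon's test, which chance alone does in about 1 in 20 groups. In C57BL/6J, these were Col6a6 in mouse 1 (0.0936 CPM, the others at 0), Gm20075 in mouse 4 (0.814 CPM, the others 0.174 to 0.281), Gatm in mouse 2 (727 CPM, the others 495 to 520), Atp6v0c-ps2 in mouse 1 (4.96 CPM, the others 3.14 to 3.34) and the striatal projection neuron markers in mouse 4 (2154 CPM, the others 355 to 623). In B6D2F1N, they were Gatm in mouse 4 (354 CPM, the others 272 to 296), Zfp949 in mouse 5 (51.8 CPM, the others 37.1 to 42.3), and the endothelial and mural cell markers in mouse 2 (605 CPM against 352 to 437, and 691 CPM against 426 to 481). None of the called genes overlapped between the strains, but they were chosen by the difference between these same groups. The lack of overlap thus does not clear the libraries that stood apart. Such a library lay away from the other strain for Gatm in C57BL/6J mouse 2 and Zfp949 in B6D2F1N mouse 5. For Gatm in B6D2F1N mouse 4 and the other called genes, it lay toward the other strain. Without C57BL/6J mouse 2, Gatm had an adjusted p of 0.130 with edgeR.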

How the results depend on the processing

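Numbers of called genes depended on the test and on the samples, and the 39 called protein-coding genes kept their direction under all 22 alternatives, as the 3 named pseudogenes did under the 21 that tested them. Tmem87a, Tpm3-rs7, Cap1, Eno1b and Mlycd, 5 of the 39 protein-coding genes, passed under each. DESeq2 gave 342 genes (258 higher and 84 lower in B6D2F1N), 190 of them protein-coding (118 and 72), including all 39. Only mice with both portions gave 35 genes (33 and 2), 6 protein-coding (5 and 1). With only protein-coding genes in the fit, 17 passed (14 and 3). Without a minimum count, 24 genes were lower, 19 of them protein-coding. With the bias label as a term, 8 were lower, 6 of them protein-coding. Alternatives added after seeing the data were a term for the share of reads on no gene, with 53 genes (51 and 2), 12 protein-coding (11 and 1); a term for oligodendrocyte markers, with 28 (25 and 3), 8 protein-coding (6 and 2); and the fit without B6D2F1N mice 1 and 3, with 5 lower, 3 of them protein-coding. The standard comparison without the library lacking Xist gave 166 genes instead of 94, and DESeq2 gave 37 interaction genes instead of 0. The cause of these shifts was not tested.

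Leaving out each mouse gave 68 to 86 genes (63 to 76 higher, 4 to 14 lower), and 18 to 32 protein-coding genes (15 to 24 and 3 to 12). The lowest numbers, 68 and 18, came without C57BL/6J mouse 2. The oligodendrocyte difference was -1.02 to -0.77. No paired analysis was possible because the strains share no mouse. Genes at a few counts per library are limited by depth.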
